A study of Homo sapiens with 2 samples.

Results

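The genes examined were 10 members of the ETS family of transcription factors that are used by blood cells, ERG, FLI1, SPI1, ETV6, ETS1, ETS2, ELF1, GABPA, SPIB and ELK3. LDB1 peaks were taken as theirs when they overlapped the gene body extended by 50 kb on each side, and 7 of the 11046 deposited LDB1 peaks (0.0634%) met this rule. These 7 peaks lay at 4 of the 10 genes: SPI1, ETV6 and ETS2 had 2 peaks each and SPIB had 1. ERG, FLI1, ETS1, ELF1, GABPA and ELK3 had none.

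CUT&Tag, in which an antibody guides a transposase to a chromatin protein so that the enzyme tags the DNA beside it, was carried out in the human cell line NB4, which comes from an acute promyelocytic leukemia. Of 2 libraries, 1 was made with an antibody to LDB1 and is labelled as LDB1 overexpression, and the other was made with IgG and is labelled as untreated. The methods describe an LDB1 overexpression plasmid without naming it for CUT&Tag, so whether the cells of the LDB1 library overexpressed LDB1 is uncertain. If the labels hold, antibody and treatment changed together and cannot be told apart. With 1 library per group no replicate error could be given and the groups were not tested against each other. The LDB1 peak list gave positions and lengths with no height, so read depth was unknown, expression was not part of the data and the cell type label could not be checked against marker genes. Intervals below are 95% intervals and cover counting error within 1 library only.

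ETS factors share a winged helix-turn-helix domain that binds DNA around a GGAA core. In blood they act at most stages: ERG and FLI1 maintain stem and progenitor cells, PU.1 (the product of SPI1) drives myeloid and B cell development, and ETV6 is a repressor needed by stem cells in the bone marrow. LDB1 does not contact DNA itself but binds LMO2, a scaffold protein, in a complex with GATA and TAL1 factors. This complex is known for a composite element, an E-box part followed at a fixed distance by a GATA motif. ERG and FLI1 occupy many of the same enhancers as GATA2, RUNX1, TAL1 and LMO2 in progenitor cells.

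The sequences below show the motif matches described in the results, given 5′ to 3′ on the plus strand of hg38. Capitals mark matches, on either strand, to the composite, to GATA, to an E-box, to an ETS or RUNX motif, or to AP-1, as spelled out further on. The 1st is the middle of the ETV6 peak with a composite at chr12:11801943-11802142, and the 2nd is the middle of its neighbour at chr12:11799080-11799279.
ETV6 peak 2: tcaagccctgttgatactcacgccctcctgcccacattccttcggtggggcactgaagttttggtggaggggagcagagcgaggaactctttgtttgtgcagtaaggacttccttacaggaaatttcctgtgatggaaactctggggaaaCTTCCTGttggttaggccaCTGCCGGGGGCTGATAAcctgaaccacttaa
ETV6 peak 1: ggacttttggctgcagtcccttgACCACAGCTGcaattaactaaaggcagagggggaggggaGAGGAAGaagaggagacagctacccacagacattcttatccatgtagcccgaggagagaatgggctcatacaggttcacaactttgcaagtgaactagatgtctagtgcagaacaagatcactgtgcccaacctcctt

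Upstream of SPI1, the middle of the peak at chr11:47399962-47400161 is shown for an E-box that touches a GATA motif, and a shorter stretch of the same peak at chr11:47400184-47400259 for its composite. The stretch at chr19:50377647-50377723 holds the composite of the SPIB peak.
SPI1 peak 2: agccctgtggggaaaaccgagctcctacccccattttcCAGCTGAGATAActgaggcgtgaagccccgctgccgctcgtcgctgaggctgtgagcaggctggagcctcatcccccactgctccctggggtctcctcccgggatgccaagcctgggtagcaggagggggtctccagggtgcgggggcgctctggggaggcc
SPI1 peak 2 composite: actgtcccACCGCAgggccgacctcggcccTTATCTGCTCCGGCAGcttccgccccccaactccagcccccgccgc
SPIB peak 1 composite: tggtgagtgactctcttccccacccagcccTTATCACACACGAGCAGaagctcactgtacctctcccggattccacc

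Beyond ETS2, the middle of each peak is shown, at chr21:38851553-38851752 and chr21:38853682-38853881, since E-boxes are present in both and GATA in 1.
ETS2 peak 1: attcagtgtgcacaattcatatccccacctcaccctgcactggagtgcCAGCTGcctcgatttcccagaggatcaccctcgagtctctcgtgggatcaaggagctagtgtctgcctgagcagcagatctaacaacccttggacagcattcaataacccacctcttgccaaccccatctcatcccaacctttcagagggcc
ETS2 peak 2: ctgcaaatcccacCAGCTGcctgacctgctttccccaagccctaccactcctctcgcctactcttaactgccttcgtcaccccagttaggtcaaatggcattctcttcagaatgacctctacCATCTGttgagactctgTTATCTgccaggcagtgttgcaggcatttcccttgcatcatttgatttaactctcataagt

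SPI1 was the only one of the 10 genes with a peak at its promoter. This peak, chr11:47377702-47379049, was the longest of the 7 at 1348 bp, and 546 peaks (4.94% of the list) were longer. Its midpoint lay 172 bp downstream of the canonical transcription start site (TSS), in exon 1 of 5, and the peak reached 502 bp upstream of the TSS and 845 bp downstream. The whole peak held 3 GATA motifs, 1 composite, 3 ETS motifs and 2 motifs of the PU.1 form. The composite lay 11 to 27 bp upstream of the TSS, at chr11:47378558-47378574, with 58 bp between it and the nearest ETS motif. None of these motifs fell in the central 200 bp. A match of letters is a description of the sequence and not a site of binding.

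The other SPI1 peak, chr11:47399599-47400523, was 925 bp long and lay 21.5 kb upstream of the TSS, outside any protein-coding gene. The 2 SPI1 peaks were 20549 bp apart. Here the nearest protein-coding TSS was not that of SPI1 but that of SLC39A13, a zinc transporter gene, at 8529 bp, and the nearest TSS of any kind was that of the microRNA MIR4487, 909 bp away. In the centre, an E-box ended at the base before a GATA motif began, as the capitals in the printed sequence show, and this spacing is not that of the composite. A composite with 7 bases between its parts lay nearer the right edge, with 16 bp between it and a RUNX motif. SPI1 is also among the genes that the study put forward as candidate targets of LDB1.

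Both ETV6 peaks lay in intron 2 of a gene with 8 exons, far from any start site. ETV6 peak 1, chr12:11798956-11799402, was 447 bp long and lay 149.5 kb downstream of the canonical TSS, and ETV6 peak 2, chr12:11801903-11802181, was 279 bp long and lay 152.4 kb downstream. They were 2500 bp apart, and their nearest annotated TSS, of another ETV6 transcript, was 46.7 and 49.5 kb away. ETV6 peak 2 was the shortest of the 7, with 83.4% of the list longer, and it alone held the composite in its central 200 bp. A window of 200 bp takes in more of a short peak than of a long one, and composites of longer peaks lay outside it. The composite of ETV6 peak 2, at chr12:11802112-11802128, stood 12 bp from an ETS motif at chr12:11802093-11802099, so the composite and the ETS motif together spanned 36 bp. The composite holds CTG, and neither of the full E-box sequences searched was found in this peak. ETV6 peak 1 held a motif of the PU.1 form in its centre and a RUNX motif that shared 2 bases with an E-box, and its only GATA motif lay outside the central 200 bp.

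The SPIB and ETS2 peaks lay outside those genes. SPIB encodes a relative of PU.1 used in B cells and plasmacytoid dendritic cells, and its peak, chr19:50377121-50377783, was 663 bp long and lay 41.5 kb upstream of the SPIB TSS. It sat 18 bp from a TSS of NR1H2, which encodes the sterol receptor LXRβ, and inside that gene. Its GATA motif and its composite, at chr19:50377677-50377693, were outside the central 200 bp. ETS2, a widely expressed factor that responds to RAS signalling, had its peaks beyond its 3′ end. ETS2 peak 1, chr21:38851475-38851829, was 355 bp long and began 26.5 kb past the gene body, and ETS2 peak 2, chr21:38853525-38854037, was 513 bp long and began 28.6 kb past it, 1695 bp after the first. For both, ETS2 had the nearest protein-coding TSS, at 45.7 and 47.9 kb, while the nearest TSS of any kind was that of a long non-coding RNA gene, ENSG00000229986 at 5405 bp and ENSG00000287082 at 3758 bp.

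**Figure D1:**
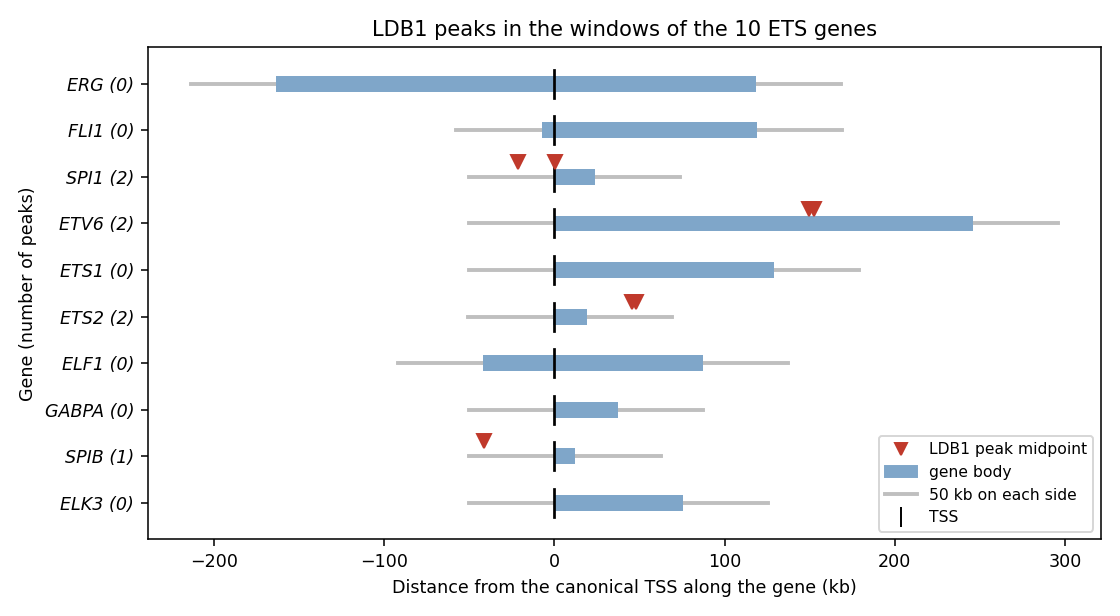
LDB1 peaks around the 10 ETS genes, with distance from the canonical TSS along the direction of the gene in kb on the x axis and 1 gene per line, the number of peaks in brackets. Triangles are peak midpoints, blue bars gene bodies, grey lines the 50 kb on each side and black ticks the TSS; 1 triangle is at a TSS (SPI1), 2 are inside ETV6, and 4 are outside gene bodies.

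ERG, FLI1 and ETS1 had no peak. ERG, in the longest window (382 kb), had its nearest peak 159 kb past the 3′ end of the gene, a peak of 662 bp. Its body lay in a peak-free stretch of 631 kb that also held the ETS2 body and ended at ETS2 peak 1. FLI1 and ETS1, neighbours whose bodies were 99.0 kb apart so that their windows shared 1024 bp, lay together in a peak-free stretch of 3586 kb, from chr11:126420527 to chr11:130006855. The next peak was 1194 kb from FLI1 and 1419 kb from ETS1 (a factor of lymphoid cells), and it was the same peak of 502 bp. Of the 11023 stretches between neighbouring peaks of the list, 138 were longer than this, and the median was 30.5 kb and the 95th percentile 1253 kb. A stretch that holds a whole window without a peak exceeds this median by the choice of gene alone. Ranks by number of stretches, here and for GABPA below, are not shares of the genome, since long stretches cover more of it.

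Among the more widely expressed factors, ELF1 had its nearest peak 69.4 kb upstream, a peak of 785 bp outside its window. GABPA, which encodes the DNA-binding part of GABP and is used at housekeeping promoters, lay in a peak-free stretch of 4927 kb, with 74 stretches of the list longer, and its nearest peak was 1020 kb away. ELK3, a ternary complex factor, had its nearest peak at 176 kb, in a stretch of 1262 kb. Of the peaks kept by the rule, the one farthest from its gene body was the SPIB peak at 41.2 kb, and the nearest peak left out was also beside SPIB, at 68.8 kb and 533 bp long.

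Most protein-coding genes also had no peak. Of all 20033 protein-coding genes, 44.8% had a peak in a window built in the same way, against 4 of the 10 ETS genes (40%, Wilson interval 16.8 to 68.7%). For the gene body alone the background was 16.5%, against 2 of 10 (20%, 5.67 to 51.0%). A peak midpoint within 3 kb of the canonical TSS was found for 6.19% of protein-coding genes and for 1 of the 10, SPI1 (10%, 1.79 to 40.4%). Each of these shares is near its background and is not a result about the ETS genes. Of the 917 protein-coding genes with a window at least as long as that of ERG, 63.0% had no peak. A count of 0 in the ERG window allows up to 0.786 peaks per 100 kb (3 counts), which is above the 0.358 per 100 kb of hg38 as a whole, and the other 5 windows, being shorter, allow 1.31 to 2.18.

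Relative to the length of the windows, the number of peaks at the ETS genes was within counting error of hg38 as a whole, which includes sequence far from genes. Their windows covered 2.08 Mb together and held 3.36 peaks per Mb (Poisson interval 1.35 to 6.93), and hg38 held 3.58 per Mb. The hg38 value is over the full length of the 24 chromosomes, with unknown bases (N) included. The windows were longer than usual, with a median of 201 kb (112 to 382 kb) against 127 kb for protein-coding genes. The mean number of peaks was 0.7 per ETS gene against 1.17 per protein-coding gene, with a median of 0 in both. The mean was thus lower at the ETS genes although their median window was longer, and this was not tested. No ETS gene had more than 2 peaks, whereas 15.8% of protein-coding genes did and the highest count was 50.

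The other 18 genes of the ETS family, taken by membership of the family, gave a wider range of counts. A peak was present at 10 of the 18 (55.6%, 33.7 to 75.4%), an interval that holds the background of 44.8%. SPDEF had 7 peaks, EHF 6, ELK1 4 and ERF 3, ETV7 and ELF3 had 2 each, and ETV2, ELF4, ELF5 and ELK4 had 1 each. SPDEF, EHF, ELF3 and ELF5 are known as epithelial factors. FEV, SPIC, ETV1, ETV3, ETV3L, ETV4, ETV5 and ELF2 had no peak. Their windows held 11.8 peaks per Mb, with SPDEF and EHF giving 7 and 6 of the 28 peaks, and the difference from the 10 genes was not tested.

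**Figure D2:**
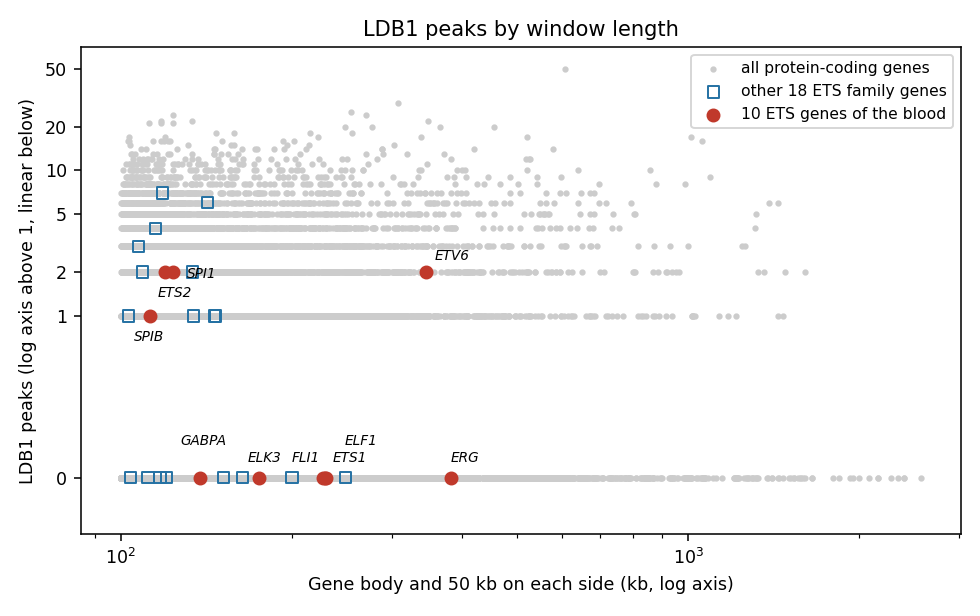
Number of LDB1 peaks against the length of the gene body with 50 kb on each side in kb (log x axis, y axis linear up to 1 and log above), with 1 point per gene. Grey points are the 20033 protein-coding genes, red points the 10 ETS genes of the blood, which sit between 0 and 2, and blue squares the other 18 family genes, which sit between 0 and 7.

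The 7 peaks were of usual size for the list. Their median length was 513 bp (279 to 1348 bp) against 451 bp for the other 11039 peaks, and the middle of all lengths ran from 314 to 666 bp between the quartiles. Median GC content of the central 200 bp was 54% against 51.5%, and the central 31 bp of each of the 7 was found once in hg38. Of the 7, 3 lay within 3 kb of an annotated TSS (42.9%, 15.8 to 75.0%) against 35.6% of the other peaks. Those were SPI1 peak 1 at its own gene, SPI1 peak 2 beside MIR4487 and the SPIB peak at NR1H2.

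Motifs were then counted in the central 200 bp of each peak, on both strands. The GATA motif was AGATAA or AGATAG or TGATAA or TGATAG, and the composite was CTG with 7 or 8 bases between it and a GATA motif, which it therefore contains. GATA was present in 3 of 7 peaks (42.9%, 15.8 to 75.0%) against 47.1% of the other peaks, and the composite in 1 of 7 (14.3%, 2.57 to 51.3%) against 11.2%. The E-box (CAGATG or CAGCTG) was present in 4 of 7 (57.1%, 25.0 to 84.2%) against 33.8%. Every one of these intervals holds the share of the other peaks.

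The ETS motif holds the core that the products of these genes bind. The ETS motif, CAGGAAG or CCGGAAG, was present in the centre of 1 of 7 peaks (ETV6 peak 2) against 11.8% of the others, and the PU.1 form, GAGGAAG, in 1 of 7 (ETV6 peak 1) against 8.86%. The RUNX motif (TGTGGT or TGCGGT) was present in 1 of 7 (ETV6 peak 1) against 20.5%, and AP-1 (TGACTCA or TGAGTCA) in 0 of 7 against 9.50%, where 0 of 7 has an upper bound of 35.4%. The bare core GGAA was found in all 7 and in 85.6% of the others.

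**Figure D3:**
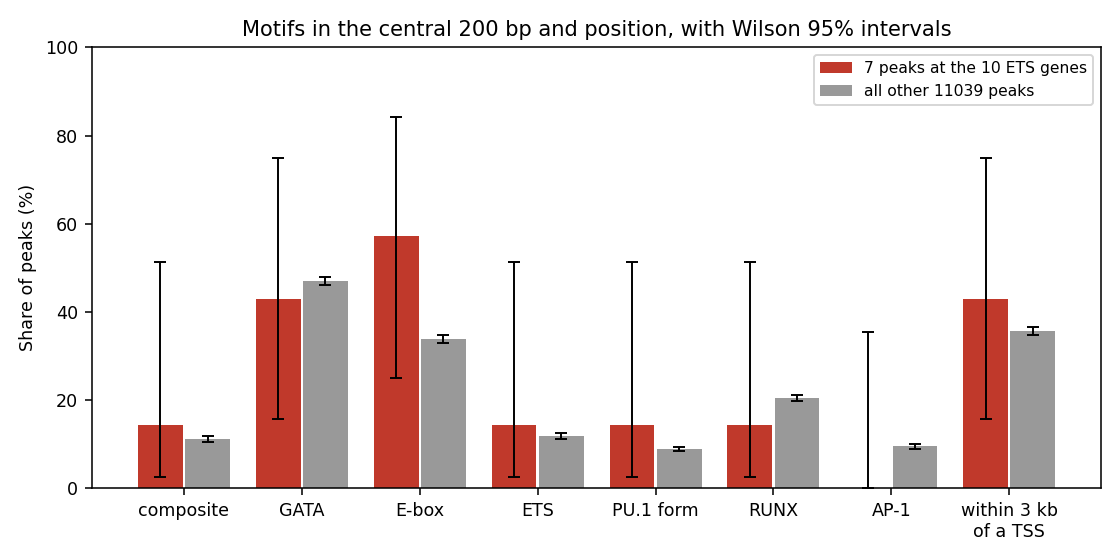
Share in percent of the 7 peaks at ETS genes (red) and of the other 11039 peaks (grey) with each motif in the central 200 bp, and share within 3 kb of an annotated TSS. Bars start at 0 and error bars are Wilson 95% intervals; each red interval spans the height of the grey bar beside it.

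When whole peaks were read in place of their centres, more motifs were met. The composite was then present in 4 of 7 (57.1%), 1 each in both SPI1 peaks, ETV6 peak 2 and the SPIB peak, against 22.3% of the other peaks. The ETS motif was also present in 4 of 7, both SPI1 and both ETV6 peaks, against 26.8%, and GATA in 6 of 7 (85.7%) against 71.4%. The PU.1 form, in 2 of 7, was also above its share of the other peaks. The E-box (4 of 7), RUNX (2 of 7) and AP-1 (1 of 7) were below theirs. Whole peaks at the ETS genes were thus not richer in every motif, and these differences were not tested. Longer peaks hold more letters, so matches were also counted per kb of peak, a measure added after these values were seen. The 4 composites in 4.53 kb gave 0.883 per kb (Poisson interval 0.241 to 2.26) against 0.431 in the other peaks. The 7 ETS motifs gave 1.55 per kb (0.621 to 3.18) against 0.612, with 3 of the 7 in the SPI1 promoter peak. The composites' interval holds the value of the other peaks, and the lower bound for ETS motifs is just above it. Both counts are small, and 6 of the 7 ETS motifs lay outside the central 200 bp. Only the composite and the ETS motif were put on this scale, after their shares in these same peaks were seen. The interval also takes matches as independent, although 3 of the 7 ETS motifs lay in 1 peak. No enrichment of ETS motifs is therefore drawn from these values.

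**Figure D4:**
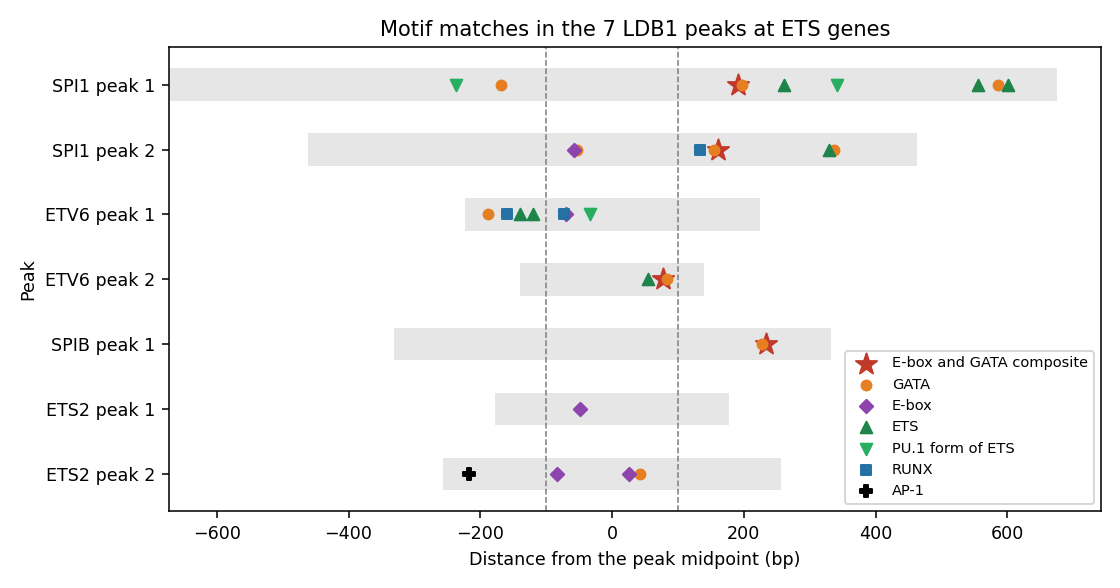
Positions of motif matches in the 7 peaks, as distance in bp from the peak midpoint, with 1 peak per line, grey bars for the extent of each peak and dashed lines at 100 bp on each side of the midpoint. Stars mark the 4 composites, of which that of ETV6 peak 2 lies between the dashed lines; each composite has a GATA symbol within it.

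Composite letters were common in the windows, and few were in peaks. hg38 held 224764 composites, of which 2721 (1.21%) lay in a peak, and the windows of the 10 genes held 148, of which 4 (2.70%, Wilson interval 1.06 to 6.74%) did. These were 2 of 9 at SPI1, 1 of 27 at ETV6 and 1 of 4 at SPIB, with 0 of 14 at ETS2. At the genes without a peak, ERG had 20 (52.4 per Mb of window), ETS1 19 (83), ELF1 18 (78.4), FLI1 16 (70.6), ELK3 13 (74.1) and GABPA 8 (58), or 94 in all. The windows of the 10 genes together held 71.1 per Mb, and hg38 held 76.5 per Mb of known bases, with N left out. None of these 94 could lie in a peak, since their genes were grouped by having no peak in the window. No share was therefore drawn from them.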

How the data were processed

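The authors made CUT&Tag libraries from NB4 cells with antibodies to LDB1 and IgG, using a commercial kit. Per the methods and the submitters' processing notes, reads were aligned to hg38 with Bowtie2 2.4.4, and MACS3 3.0 called peaks from read pairs at a q-value limit of 0.01. Use of the IgG library as control and removal of duplicates are not given in the sources used here. The deposited file lists the start, end and length of each LDB1 peak. The IgG library was not used here.

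Gene bodies, canonical TSS and transcripts came from GENCODE 44, on 24 chromosomes, and sequences were read from hg38. An overlap of 1 base counted. Since no summit was given, motifs were searched around the midpoint. Shares carry Wilson intervals and densities Poisson intervals, with a floor of 3 counts for a count of 0. Scripts ran in Python 3.11.15 with pysam 0.24.0, SciPy 1.17.1, pandas 2.3.3, numpy 2.4.6 and matplotlib 3.10.9. On simulated data, 1000 of 1000 written composites were found, and 199 of 199 regions had the right count.

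The genes and lists were chosen with earlier results of these data known. The rule for named genes took all 10 genes, each with its number of peaks, its longest peak, the peak nearest its TSS and any peak with a composite, and the other 18 family genes by number of peaks. For sequences, the rule took for each gene its longest peak with a composite, else with GATA, else its longest; the second peak of a gene and stretches of 30 bp around 2 composites were added after seeing them. Stretches with over 30 bp of a UTR were not printed. Alternatives were other gene windows, the 5523 longest peaks, merged peaks, midpoints, other motif windows and letters, other TSS sets and leaving out each gene with 2 peaks.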

Additional observations from a re-analysis of the deposited data

How the results depend on the processing

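Of 61 alternatives to 10 values, 38 left the value within its counting interval, or within 1.5 times for a count, and 23 moved it; the causes were not tested, and with 7 peaks each step of a share is 14.3%. The number of peaks fell from 7 to 3 in gene bodies alone or with 10 kb on each side, and to 4 among the 5523 longest peaks of the list. The last setting drops the rest of the 11046 peaks, so the cut alone lowers counts. The number of ETS genes with a peak fell from 4 to 2 with either narrower window, and that of other family genes from 10 to 4 (bodies) and 5 (10 kb). With 100 kb these were 10 peaks, 5 and 15 genes. The composite share went from 14.3% to 0% in the central 100 bp, among the longest peaks and without ETV6, and to 57.1% in whole peaks. The ETS share moved in the same way, to 0%, 0%, 0% and 57.1%, and to 100% for the bare core GGAA. The RUNX share went to 0% in the central 100 bp, among the longest peaks and without ETV6. The central composite, ETS and RUNX motifs thus rest on ETV6. GATA went from 42.9% to 14.3% (central 100 bp) and 85.7% (whole peaks). The share near a TSS went to 14.3% for TSS of the 10 genes and 75% among the longest peaks. Peaks per 100 kb (0.192 to 0.342, main 0.336) and median length (447 to 794 bp) stayed within the counting interval and within 1 SD of length (376 bp) under the alternatives run. The values of 0.192 and 794 bp came from the 5523 longest peaks, with no background cut in the same way. That cut by length alone raises the median length, and 1 SD of single peak lengths is a wide margin for a median. No paired analysis was possible because there was 1 library per group. Without depth or peak height, a window without a peak cannot be told from one below the caller's limit.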
